A study of Mus musculus with 6 samples.

Results

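The genes described here encode the kinases that phosphorylate SR proteins (Clk1, Clk2, Clk3, Clk4, Srpk1 and Srpk2), the SR-like splicing activators Tra2a and Tra2b, and the SR-related matrix proteins Srrm1 and Srrm2. They were found by matching each name to the gene names of the deposited table, and all 10 were present among its 21307 rows, each in a row with no other gene name. The study sequenced messenger RNA of B cells isolated from mouse bone marrow, in 3 libraries of cells treated with 4-hydroxytamoxifen (4-OHT) and 3 libraries of cells that received ethanol. Per the labels, all cells came from Eµ-myc mice aged 6 to 8 weeks, on a C57BL/6 x 129S1/SvlmJ background, in which an immunoglobulin enhancer drives MYC in the B lineage and both Prmt5 alleles are flanked by loxP sites. All carried the CreER recombinase, whose promoter the sources used here do not give, and all were grown with interleukin 7 at 5 ng/µl. 4-OHT at 50 nM was given for 24 h to delete Prmt5, controls had ethanol instead, and both were washed and kept for 5 days more. Exposure to 4-OHT and loss of Prmt5 therefore cannot be told apart in this design. The libraries treated with 4-OHT are titled PT and those given ethanol WT, although the characteristics give both the same genotype, and the conditions are named here by treatment.

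Each gene has 1 deposited FPKM value in each condition, a count of fragments scaled by transcript length and library size. They carry no replicate error, SD or depth, so no test could be run, and every difference below is a difference in size between 2 pooled values. For each ratio 1 FPKM was added to both values, the 4-OHT value was divided by that of ethanol and the log2 was taken, a scale that understates changes of weakly expressed genes. The background is the 10856 rows that averaged 1 FPKM or more over the conditions and were above 0 in both. All 10 members were among them, with means of 10.7 to 84.4 FPKM. Prmt5, which encodes the arginine methyltransferase targeted by the deletion, was at 5.71 FPKM in 4-OHT and 41.6 FPKM in ethanol, and Myc was at 213 FPKM in 4-OHT and 402 FPKM in ethanol.

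SR proteins carry a domain rich in arginine and serine, the RS domain, and their place in the cell and their activity depend on its phosphorylation. SRPK kinases act mostly in the cytoplasm and phosphorylate the domain so that transportin can carry the protein into the nucleus. CLK kinases act in the nucleus, phosphorylate the domain further and release SR proteins from nuclear speckles, the compartments in which splicing factors gather. TRA2 proteins bind GA-rich exonic enhancers through an RNA recognition motif flanked by RS domains. SRRM1 and SRRM2 are RS-rich proteins: SRRM1 is a splicing coactivator and SRRM2 a scaffold of the speckles. PRMT5, which is deleted here, symmetrically methylates arginines of the Sm proteins at the core of the spliceosome.

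The promoter windows of Tra2a, the member with the lowest ratio, and of Clk2, the one member with a higher value in 4-OHT, are shown because these genes mark the ends of the range described next. Both are from RefSeq on GRCm38.p6 and run 5′ to 3′ on the gene's strand, from 250 bases before to 50 bases after the transcription start. The Tra2a window is chr6:49264003-49264302 on the minus strand, and capitals mark TGACGTCA, the cyclic AMP response element.
Tra2a: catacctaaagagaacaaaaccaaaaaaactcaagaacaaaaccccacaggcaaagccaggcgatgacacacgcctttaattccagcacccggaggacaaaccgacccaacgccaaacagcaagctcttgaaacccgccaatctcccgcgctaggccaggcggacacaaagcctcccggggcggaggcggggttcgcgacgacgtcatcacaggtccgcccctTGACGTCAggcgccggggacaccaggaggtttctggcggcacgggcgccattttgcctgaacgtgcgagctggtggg
The Clk2 window is chr3:89164545-89164844 on the plus strand, and capitals mark CACGTG, the E-box sequence that MYC with its partner MAX is known to bind.
Clk2: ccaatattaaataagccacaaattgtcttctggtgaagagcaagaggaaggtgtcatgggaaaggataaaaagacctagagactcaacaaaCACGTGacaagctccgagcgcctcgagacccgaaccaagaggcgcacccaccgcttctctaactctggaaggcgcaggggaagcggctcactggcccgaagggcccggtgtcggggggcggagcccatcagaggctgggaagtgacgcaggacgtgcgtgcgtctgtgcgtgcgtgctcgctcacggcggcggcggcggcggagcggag

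Most members were lower in 4-OHT, by small amounts. Of the 10 genes, 9 were lower and 1 was higher, where 55.1% of all compared rows were lower and 44.9% higher. Tra2a alone was at least 1.5-fold lower and no member was at least 1.5-fold higher, against 12.8% and 19.5% of the compared rows. In the lower direction the share of members past 1.5-fold was thus close to that of all rows. No member was 2-fold different in either direction (2.58% of rows were 2-fold lower and 10.4% were 2-fold higher). The median ratio of the members was -0.26, or 1.20-fold lower, and the median of all compared rows was -0.07. Relative to that median, 8 members lay below it and 2, Clk1 and Clk2, above it. The values are from bulk cultures, in which fewer cells of a type and less RNA per cell cannot be told apart.

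**Figure D1:**
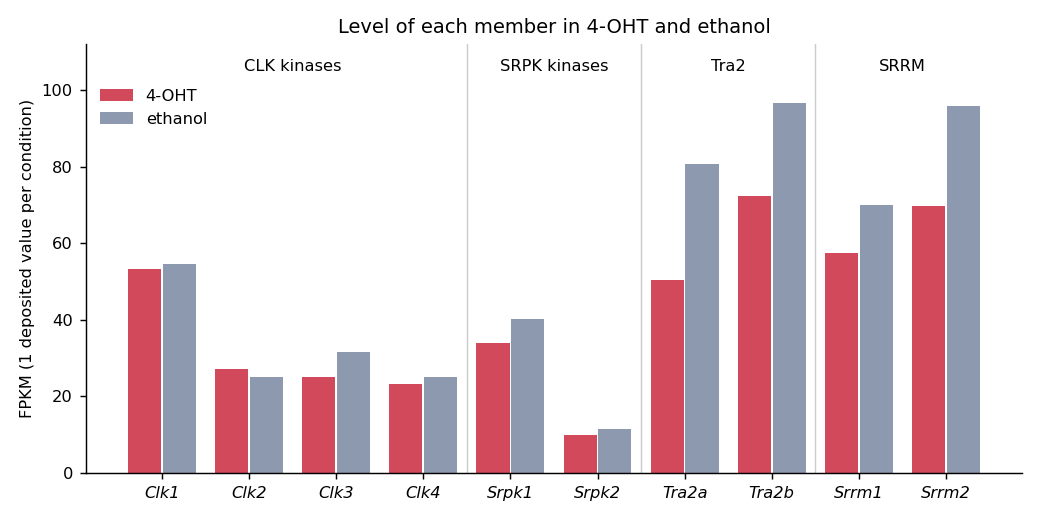
FPKM of the 10 members (vertical axis) in 4-OHT (red bars, left of each pair) and ethanol (grey bars), 1 deposited value per condition, grouped by family. The 4-OHT bar is lower for 9 genes, most visibly for Tra2a, at 50.3 against 80.8 FPKM, and slightly higher for Clk2.

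Of the nuclear CLK kinases, Clk1, Clk2 and Clk4 were near equal in the 2 conditions, and Clk3 was 1.25-fold lower in 4-OHT. Clk1 (chromosome 1, 58468832 to 58480932 on mm9), the most abundant of the 4, was at 53.4 FPKM in 4-OHT and 54.6 FPKM in ethanol, a log2 ratio of -0.03. Its close relative Clk4 (chromosome 11, 51076673 to 51095266) was at 23.3 FPKM in 4-OHT and 25.1 FPKM in ethanol, a ratio of -0.11. Both kinases had nearly the same level in either condition, and Clk1 stood at 2.29 times the Clk4 level in 4-OHT and 2.17 times in ethanol. Clk2 (chromosome 3, 88968727 to 88981009) was at 27.2 FPKM in 4-OHT and 25.1 FPKM in ethanol, a ratio of 0.11. Clk3 (chromosome 9, 57598518 to 57613667), a kinase of the same family, was at 25.1 FPKM in 4-OHT and 31.7 FPKM in ethanol, 1.25-fold lower. The order of Clk2 and Clk3 differed between conditions: Clk3 was below Clk2 in 4-OHT and above it in ethanol, while Clk1 was highest and Clk4 lowest in both, with Clk2 and Clk4 equal to 3 digits in ethanol. Summed over the 4 genes, which FPKM allows because it is scaled by length, CLK transcripts came to 129 FPKM in 4-OHT and 136.5 FPKM in ethanol. Of that sum Clk1 made up 41.4% in 4-OHT and 40.0% in ethanol.

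The cytoplasmic SRPK kinases were both lower in 4-OHT, by less than 1.2-fold in each case. Srpk1 (chromosome 17, 28726537 to 28759399), the main SR protein kinase of many cell types, was at 34.0 FPKM in 4-OHT and 40.3 FPKM in ethanol, a log2 ratio of -0.24 and 1.18-fold lower. Srpk2 (chromosome 5, 22940247 to 23122389) was the least abundant member, at 9.93 FPKM in 4-OHT and 11.4 FPKM in ethanol, a ratio of -0.18. The balance between the kinases was much the same in both conditions, with Srpk1 at 77.4% of their summed FPKM in 4-OHT and 77.9% in ethanol. All 6 kinases together came to 173 FPKM in 4-OHT and 188 FPKM in ethanol, and 91.9% of the ethanol level was therefore present in 4-OHT.

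The Tra2 genes had the largest difference of the 4 families. Tra2a (chromosome 6, 49193920 to 49214051) was at 50.3 FPKM in 4-OHT and 80.8 FPKM in ethanol, a log2 ratio of -0.67 and 1.59-fold lower, and 9.09% of all compared rows had a lower ratio. Tra2b (chromosome 16, 22245814 to 22266002), the paralogue that is better studied and is known to control its own level through a poison exon, was at 72.3 FPKM in 4-OHT and 96.6 FPKM in ethanol, a ratio of -0.41 and 1.33-fold lower. Tra2b was the more abundant in both conditions, at 1.44 times Tra2a in 4-OHT and 1.20 times in ethanol. Summed Tra2 FPKM was 122.5 in 4-OHT and 177 in ethanol.

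The SRRM genes were also lower. Srrm2 (chromosome 17, 23940154 to 23966076), the speckle scaffold, was at 69.8 FPKM in 4-OHT and 95.8 FPKM in ethanol, a log2 ratio of -0.45 and 1.37-fold lower. Srrm1 (chromosome 4, 134876399 to 134909129), the coactivator, was at 57.4 FPKM in 4-OHT and 70.1 FPKM in ethanol, a ratio of -0.28 and 1.22-fold lower. The 4 RS-rich splicing proteins were the 4 most abundant members in ethanol, whereas in 4-OHT Clk1, at 53.4 FPKM, stood above Tra2a, at 50.3 FPKM. All 4 were lower in 4-OHT, with ratios of -0.67 to -0.28 and a median of -0.43. The 6 kinases had ratios of -0.33 to 0.11 and a median of -0.14. These ranges overlap at Clk3, whose ratio of -0.33 lay below that of Srrm1, and the difference between kinases and RS-rich proteins was not tested.

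**Figure D2:**
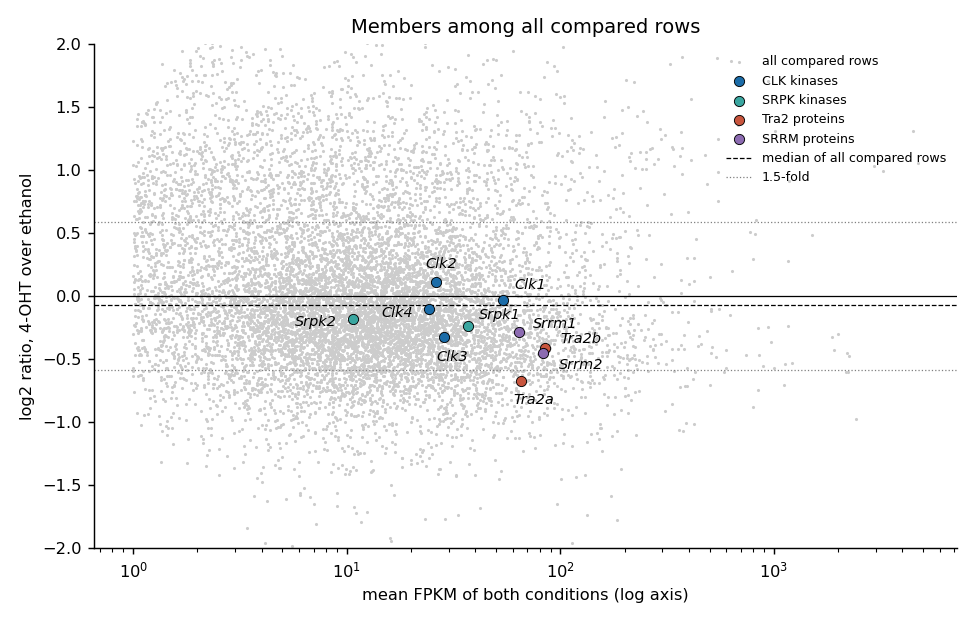
Log2 ratio of 4-OHT over ethanol (vertical axis) against the mean FPKM of both conditions (horizontal log axis) for all 10856 compared rows (grey) and the 10 members (coloured by family); 165 rows lie beyond the vertical axis. The dashed line is the median of all rows, -0.07, and the dotted lines mark 1.5-fold; Tra2a alone lies past one of them.

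Members were well expressed, so they were also set among rows of similar level. All 10 lay between 10 and 100 FPKM on average, and 59.6% of the 5425 rows in that range were lower in 4-OHT, with a median ratio of -0.13. At least 1.5-fold lower were 13.5% of these rows. Set among them, Tra2a had a ratio above that of 9.25% of rows, Srrm2 above 22.1% and Tra2b above 24.7%. Clk1 and Clk2 lay in the upper part of the same rows, above 57.4% and 67.0% of them. This range was chosen after the members' levels were seen.

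Genes that work with the members were read from 5 lists: SR proteins, other RS-domain and speckle proteins, other kinases of splicing factors, phosphatases of SR proteins, and the import receptor and chaperones of SR proteins and SRPK. Of 52 compared genes on these lists, 46 were lower and 6 higher in 4-OHT. Past 1.5-fold were 6 lower and 0 higher, and the median was -0.34. Over all compared rows 55.1% were lower, 12.8% at least 1.5-fold lower and 19.5% at least 1.5-fold higher, so the share of list genes at least 1.5-fold lower was near the background.

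The SR proteins, the substrates of CLK and SRPK kinases, were lower in 10 of 10 compared genes, 2 of them by at least 1.5-fold, with a median of -0.48, where 55.1% of all compared rows were lower and 12.8% at least 1.5-fold lower. Srsf5 and Srsf2, the most abundant, were at 139 and 133 FPKM in 4-OHT and at 189 and 180 FPKM in ethanol. Srsf10, which represses splicing when dephosphorylated, had the lowest ratio, -0.75, at 40.9 FPKM in 4-OHT and 69.3 FPKM in ethanol, and Srsf11 the highest, -0.07. Summed SR protein FPKM was 4.60 times that of the 6 kinases in 4-OHT and 5.82 times in ethanol. Srsf12 was near 0 in both conditions and was not compared.

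Other RS-domain and speckle proteins were lower in 16 of 19 compared genes, with a median of -0.31, near that of the members. Among all compared rows 55.1% were lower. Zranb2, a zinc finger splicing factor with an RS domain, was the one gene of all 5 lists past 2-fold, at 20.9 FPKM in 4-OHT and 54.2 FPKM in ethanol (2.52-fold lower). The highest ratio was that of Luc7l, a protein associated with the U1 snRNP, at 43.4 FPKM in 4-OHT and 33.7 FPKM in ethanol. The most abundant genes, Snrnp70 of the U1 snRNP and U2af2, which recognises the polypyrimidine tract, had ratios of -0.34 and -0.29. Srrm3 and Srrm4, the neural relatives of Srrm1 and Srrm2, were below 0.01 FPKM in both conditions and were not compared.

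The other kinases, the phosphatases, and the import receptor and chaperones were mostly lower in 4-OHT, by differing amounts. The counts here stand beside 55.1% of all compared rows that were lower and 12.8% that were at least 1.5-fold lower. Of 10 compared kinases beside the members, 8 were lower, with a median of -0.17. Dyrk2 had the lowest ratio among them, at 11.9 FPKM in 4-OHT and 20.5 FPKM in ethanol. Akt2 had the highest, 0.10, and the most abundant, Akt1 and Cdk11b, the partner of L-type cyclins, were at -0.19 and -0.15. Srpk3, the muscle kinase of the SRPK family, was below 1 FPKM in both conditions. The phosphatase list, which includes the regulatory subunit gene Ppp1r8, was lower in 6 of 7 genes, none by 1.5-fold. Its median of -0.55 is the ratio of Ppp1r8 itself, and its summed FPKM in 4-OHT was 81.2% of that in ethanol. Among the catalytic subunits of protein phosphatase 1, Ppp1cb and Ppp1cc were at -0.57 and -0.56 and Ppp1ca at -0.05. Ppm1g, a nuclear phosphatase of splicing proteins, was lowest at -0.58, and Ppp2cb, a catalytic subunit of protein phosphatase 2A, was highest at 0.14. The import receptor and chaperones were lower in 6 of 6 genes (median -0.33), from Hsp90aa1 at -0.59 to the Hsp90 activator Ahsa1 at -0.21. The most abundant of them, Hsp90ab1 and Hspa8, were at 713 and 770.4 FPKM in 4-OHT and at 984 and 919.5 FPKM in ethanol.

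**Figure D3:**
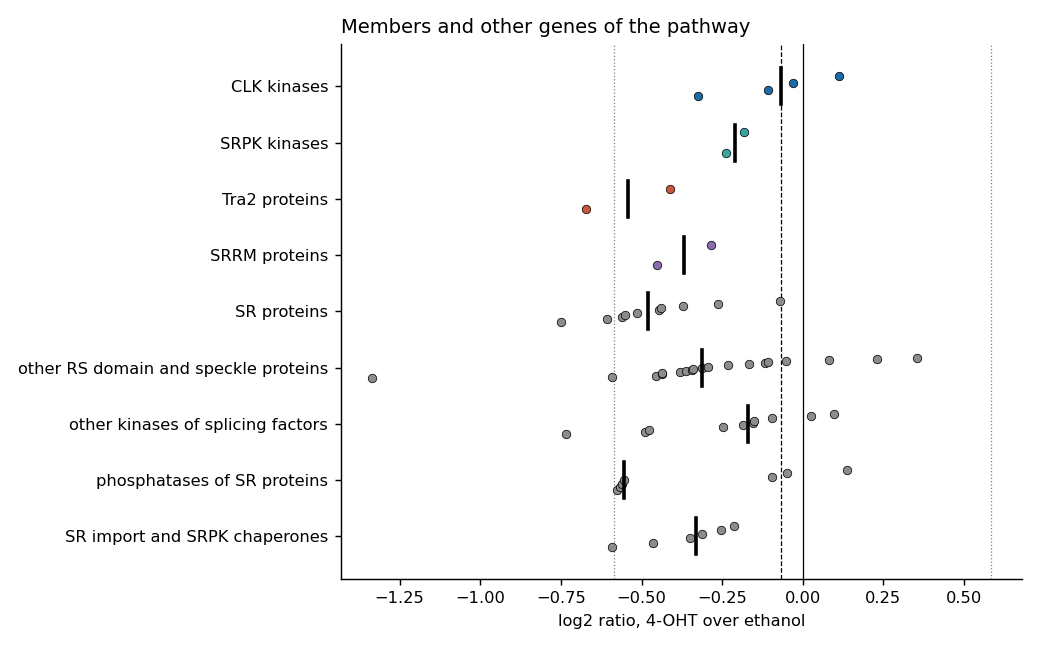
Log2 ratio of 4-OHT over ethanol (horizontal axis) of each compared gene (points) in the 4 member families (coloured) and the 5 lists of related genes (grey); thick bars are medians, the dashed line is the median of all compared rows and dotted lines mark 1.5-fold. CLK kinases have a median of -0.07, near the dashed line, with Clk3 at -0.33 the farthest from it. The medians of Tra2 genes, SR proteins and the phosphatase list lie between -0.55 and -0.48, that of the phosphatase list being the regulatory subunit gene Ppp1r8.

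Markers of cell types differed in the same comparison, in which 55.1% of all compared rows were lower, 44.9% higher and 10.4% at least 2-fold higher. The early B cell markers were lower in 10 of 10 compared genes, though Rag1 was near equal, at 28.7 FPKM in 4-OHT and 29.3 FPKM in ethanol. At least 1.5-fold lower were 8 of the 10, where 12.8% of all compared rows were. These markers summed to 829 FPKM in 4-OHT and 1860 FPKM in ethanol. Their most abundant genes, Vpreb3 and Cd79b, which take part in the assembly and signalling of the B cell receptor, were at 242 and 147 FPKM in 4-OHT and at 509 and 256 FPKM in ethanol. Neutrophil and precursor markers, led by the granule genes Ngp and Lcn2, were at least 2-fold higher in 8 of 8 compared genes and summed to 3441 FPKM in 4-OHT and 364 FPKM in ethanol. Monocyte and macrophage markers, led by Ctss and C1qb, were higher in 10 of 10 and summed to 3064 FPKM in 4-OHT and 1514 FPKM in ethanol. Stromal markers, led by Col1a1 and Sparc, were higher in 8 of 8, with sums of 539 FPKM in 4-OHT and 33.1 FPKM in ethanol. Megakaryocyte markers, led by Pf4 and Ppbp, were higher in 5 of 5, with sums of 830 FPKM in 4-OHT and 222 FPKM in ethanol. By the filter, no compared marker could be at 0 in either condition. All 10 early B cell markers passed that filter, beside genes of these other cells. In 4-OHT the neutrophil and macrophage sums were above the early B cell sum. These sums are of different genes and do not measure shares of cells, and how far the label of B cells describes the 4-OHT cultures was not tested. The part of the shift in markers in the members' differences was not tested.

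All 10 members are annotated with transcripts that do not encode the full protein. In GENCODE M21 every member had at least 1 transcript with a retained intron and at least 1 marked for nonsense-mediated decay, where 61.6% and 30.0% of the protein-coding genes named in a compared row had them. Clk1 and Clk4 had the most retained-intron transcripts, 7 each of 13 and 14 annotated transcripts, and Clk1 is known in human and mouse cells for introns that stay in nuclear RNA and are spliced out under stress. Tra2b had 3 transcripts marked for decay. Srrm1 had 15 transcripts, the most of any member, and Tra2a had 5, the fewest. Genes with many annotated transcripts have more of every class, and the FPKM values are per gene, so they measure neither intron retention nor the share of coding transcripts.

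**Figure D4:**
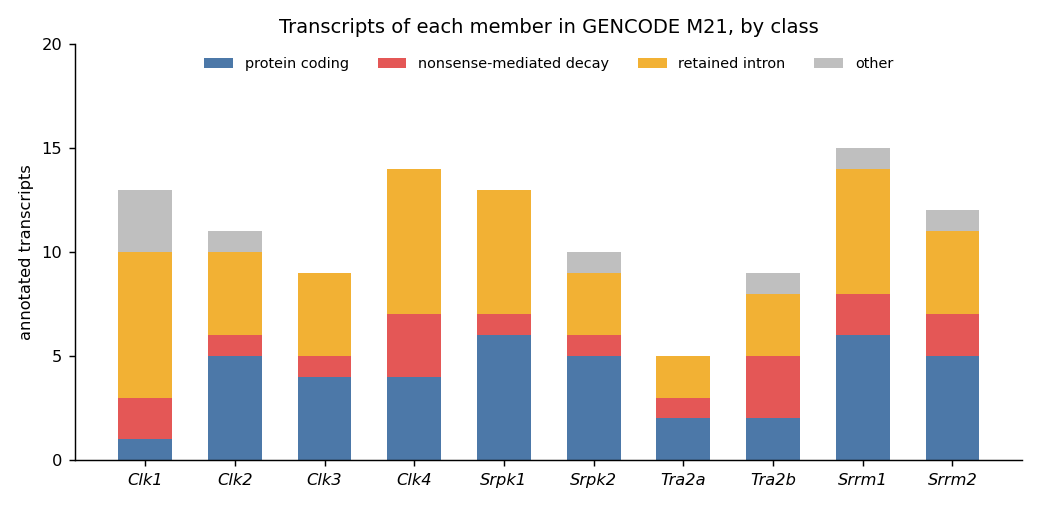
Number of annotated transcripts (vertical axis) of each member in GENCODE M21, stacked by class. Each bar holds retained-intron and nonsense-mediated decay transcripts; Clk1 and Clk4 hold 7 with a retained intron and Tra2a holds 2.

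Some members share sequence or a locus with other genes, and their values are less certain for it. In the table Srpk2 shares its locus with Mll5 (20.1 FPKM in 4-OHT and 20.8 FPKM in ethanol) and Srrm2 with Tceb2 (235 FPKM in 4-OHT and 261 FPKM in ethanol), so these loci span more than the member. Of the 50-base stretches of Clk3 coding transcripts, 31.7% also occur in transcripts of other genes, nearly all in Edc3, which lies on the opposite strand and was at 12.9 FPKM in 4-OHT and 14.7 FPKM in ethanol. The share was 17.6% for Tra2b, mostly with the predicted gene Gm10254, and 12.7% for Srpk2, all with its opposite-strand neighbour, named Kmt2e in GENCODE. It was 2.26% to 2.69% for Srpk1, Srrm1 and Srrm2 and 0 for Clk1, Clk2, Clk4 and Tra2a. The sources used here do not say whether reads were counted by strand. Clk3, Srpk2 and Srrm2 share a locus or have at least 5% of their exonic bases overlapped by another gene. Without them, 6 of the 7 members left were lower, and their median ratio was -0.24. This choice did not use the shared 50-base stretches, and Tra2b, which has many, was kept.

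Promoter windows were matched for 9 members, all but Clk1, with 12 windows in all. The windows held a median of 29 CpG dinucleotides in 300 bases, against 20 in the windows of genes in the compared rows. Those of Srpk2 held from 5 to 47, and those of Srrm2 overlap each other. The E-box CACGTG, which reads the same on both strands, occurred in 1 of the 12 windows, that of Clk2 printed above, where it begins 159 bases before the start site. It occurred in 10.3% of the 10086 windows of compared genes. TGACGTCA, also the same on both strands and looked for after the sequences were seen, occurred in 2 windows, beginning 27 bases before the start site of Tra2a and 65 bases before that of Clk4, and in 3.07% of windows of compared genes. No window of a member holds both motifs. Clk4, which holds the second motif as Tra2a does, had a ratio of -0.11 where Tra2a had -0.67. A match describes the letters of the window and shows no binding.

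The order of the members was little affected by how the ratio was formed, but several alternatives could hardly change it. Changing the filter leaves the ratio of each member as it was, and median-of-ratios scaling shifts all members nearly alike. The authors' fold changes differ from the reported ratios only in having no pseudocount. Tra2a lay between -0.68 and -0.60 over 7 alternatives and was at least 1.5-fold lower in each. Clk2 was higher in each, at 0.11 to 0.19. Clk1, the member nearest to 0, lay between -0.03 and 0.04 and had a positive ratio under median-of-ratios scaling.

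**Figure D5:**
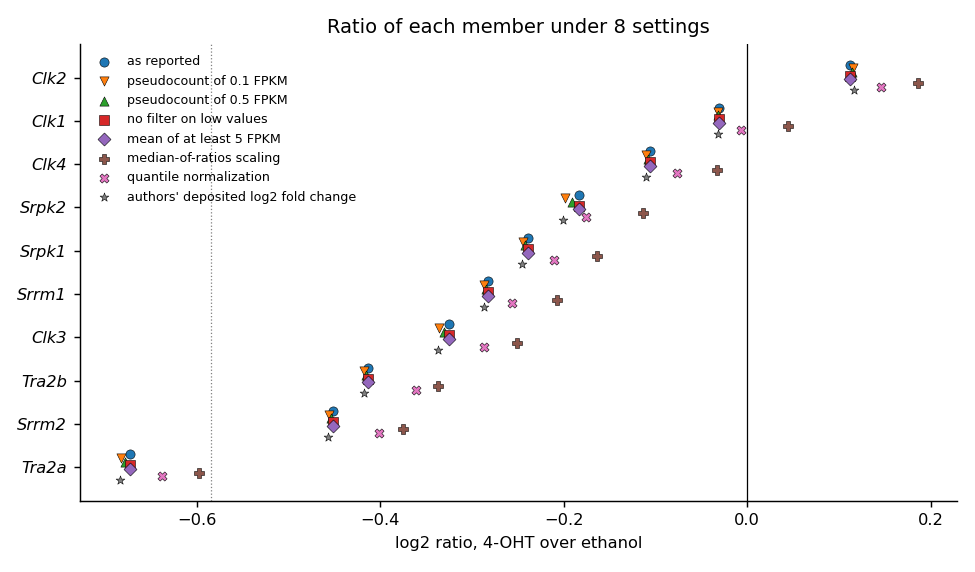
Log2 ratio of 4-OHT over ethanol (horizontal axis) of each member under 8 settings (symbols), with the reported value first; the dotted line marks 1.5-fold lower. Tra2a stays past the dotted line under every setting shown, and Clk1 crosses 0 under median-of-ratios scaling.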

How the data were processed

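Per the labels' protocols, Trizol and Purelink columns gave the RNA, and the TruSeq RNA v2 kit the libraries. The submitters' processing notes name CASAVA, TopHat2 2.0.9, Cufflinks 2.1.1 and build mm9. The authors deposited FPKM values, 1 per gene and condition; the sources used here do not say how 3 libraries became 1 value. The authors' deposited log2 fold changes equal the log2 of 4-OHT over ethanol with no pseudocount (within 0.01 in all 15756 rows above 0 in both). With no value per library, the depth is unknown and the planned test (limma) was not run.

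Ratios were computed from FPKM + 1 for rows averaging 1 FPKM or more and above 0 in both conditions, and checked on simulated data. Calls are by size, 1.5-fold and 2-fold. Alternatives changed the pseudocount, the filter or the scaling. All 10 members are named; of each list, the 2 most abundant genes, the highest and lowest ratios and any past 2-fold. Members and lists were chosen with earlier results of these data known. The marker names S100a8 and S100a9 were not matched. In the marker lists the 2 most abundant genes are named, and beside them Rag1, Pdgfrb, Cxcl12 and Lum. Loci are on mm9, with 1 added to each start. Promoters are RefSeq GRCm38.p6 and transcripts GENCODE M21 on GRCm38, used apart from the mm9 loci. Transcript sequences were compared by 50-base stretches on both strands. Protein sequences were not analysed here. Values were computed with pandas 2.3.3 and numpy 2.4.6 under Python 3.11.15 and drawn with matplotlib 3.10.9.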

Additional observations from a re-analysis of the deposited data

How the results depend on the processing

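Of 144 values recomputed under 8 alternatives, 143 lay within 0.1 (log2), or, for counts, within 1.5 times of the reported value with no change of sign. Much of this agreement was fixed in advance, because the filter does not alter a member's ratio and median-of-ratios scaling shifts all members nearly alike. Clk1, whose log2 ratio was -0.03, was at 0.044 under median-of-ratios scaling, so that 8 members were lower there. The median ratio of all compared rows, -0.07, was 0 with no filter on low values and, by construction, under median-of-ratios scaling. The median of the members ran from -0.27 to -0.19 and that of SR proteins from -0.48 to -0.40. Leaving out members with a shared locus or overlapping exons was chosen after the data were seen. Its count of lower members, 6 against the reported 9, is over 7 genes and not 10. That count is among the 143 although the sets differ. No paired analysis was possible because each condition has a single pooled value. A replicate block and the omission of single libraries could not be run either. Precision cannot be stated without counts, and Srpk2, the least abundant member, is the one whose ratio rests on the lowest values.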
